A study of Mus musculus with 8 samples.

Results

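Diesel exhaust was compared with clean air in the olfactory bulb of mice reared with environmental enrichment, a larger cage with a running wheel, a small house and toys. The comparison EE-DE/EE-C holds 4 of the 8 arrays of the series, 2 of EE-DE RNA and 2 of EE-C RNA, which were chosen by their labels. All mice were male C57BL/6J offspring with no transgene, 56 days old, reared by their dams in the enriched cage from late gestation on. The EE-DE group was exposed on 28 days (postnatal days 28 to 55, 8 h each) to exhaust diluted to 90 µg/m3, and the EE-C group breathed clean air in a chamber for as long. The EE-DE pool held RNA of 9 mice and the EE-C pool RNA of 8, and 2 arrays were hybridized from either pool. The standard-cage pools C-DE and C-C, with 7 mice in each and the same exposure and age, are used below only to set the same genes beside them. Since each group is described as 1 pool, mice were not measured singly on the arrays, and the exposure has no test and no p-value here. That the arrays of a pair hold the same RNA comes from the methods and labels and was not tested. The EE-C pair was far apart for some transcripts, with log2 signals of −4.99 and 2.23 for Mup4 and of −4.41 and 2.79 for Gm14744, and by a median of 1.26 for genes of the nasal mucosa. Whether these arrays carry the right labels was not tested, and every EE-C mean below depends on it.

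The olfactory bulb is the first relay of smell in the brain. Axons of olfactory sensory neurons reach it from the mucosa of the nose through the cribriform plate, and end on mitral and tufted cells, whose output is shaped by granule and periglomerular interneurons. The bulb is of interest for inhaled exhaust because small particles that settle on the olfactory mucosa can reach it along those axons. Known responses to exhaust in other tissues include targets of the aryl hydrocarbon receptor, which binds polycyclic aromatic hydrocarbons, targets of the antioxidant factor Nrf2, and cytokines of inflammation.

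Each value is a log2 signal relative to the 75th percentile of its array, so a gene at 0 is as bright as that percentile. A log2 fold change is the mean of the 2 EE-DE arrays minus the mean of the 2 EE-C arrays, and its range is given over the 4 pairings of an EE-DE array with an EE-C array. A gene was called at 1.5-fold (0.585 on the log2 scale). Of 34797 gene names on the array, 21721 were well above background on the enriched arrays and were measured. For 267 of them the probe lay in a low-reading corner of 1 array, EE-C_1, so that 3 arrays were used. The first and second array of a pool are named by the labels' numbers. The 75th percentile of the signal was between 657 and 716 intensity units on the 4 arrays. On the first EE-DE array 56.7% of noncontrol spots passed the background flag and the median background was 29 units, against 68.0% to 70.2% and 21 units on the other 3 arrays. Marker genes of the bulb were bright on all 4 arrays. Omp, the olfactory marker protein of sensory neuron axons, had log2 signals of 6.12 and 6.02 in EE-C and of 6.08 and 6.14 in EE-DE. Th, which makes dopamine in periglomerular cells, stood at 5.51 and 5.50 in EE-C and at 5.50 and 5.49 in EE-DE, and Cdhr1 of mitral cells at 4.67 and 4.76 in EE-C and at 4.74 and 4.70 in EE-DE.

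In EE-DE/EE-C, 117 genes were at least 1.5-fold higher and 106 at least 1.5-fold lower, which is 0.539% and 0.488% of the genes measured. The median log2 fold change over all measured genes was −0.009. The 2 arrays of the EE-C pool were themselves at least 1.5-fold apart for 425 genes, and the 2 EE-DE arrays for 376, of 21454 genes with 4 arrays. Most called genes were dim. Among the 3406 genes below −3 on the log2 scale, 75 were called higher and 61 lower, 3.99% of them, and the SD of the difference between duplicate arrays was 0.404 in EE-C and 0.395 in EE-DE. Among the 8351 genes above 1, 4 were called higher and 7 lower, 0.132% of them, and the SD was 0.15 for EE-C and 0.083 for EE-DE. Arrays of the pools did not overlap for 70 of the genes called higher and 81 of those called lower. Over all genes with 4 arrays, 3062 (14.3%) were higher on both EE-DE arrays than on both EE-C arrays and 4293 (20.0%) lower. A 1.5-fold difference in all 4 pairings was reached by 7 genes in the direction of EE-DE (0.0326%) and by 22 in the direction of EE-C (0.103%).

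**Figure D1:**
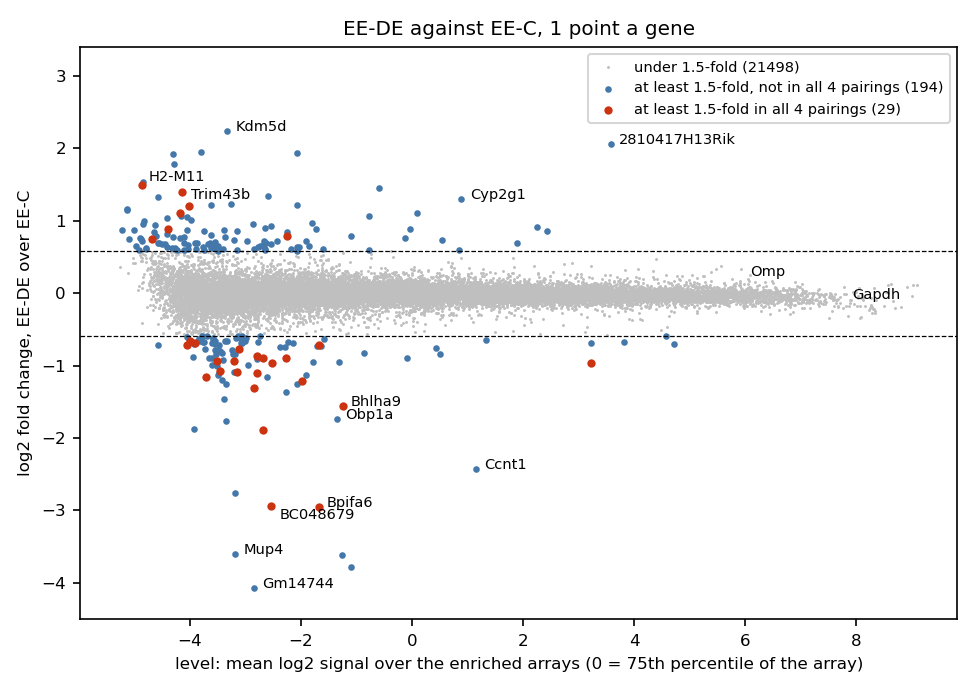
Log2 fold change of EE-DE over EE-C against the mean log2 signal on the enriched arrays, 1 point for each of the 21721 measured genes, with dashed lines at 1.5-fold. The called genes crowd at low signal, and the 29 genes past 1.5-fold in all 4 pairings are among the dim ones apart from 1 probe at a level of 3.23.

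Probes on the array are 60 bases long. The first 30 bases are shown for 5 genes with a symbol that were far apart in all pairings, and for the 1 bright probe, which has no gene name in the files, because a probe's letters define what was measured. Positions are those of the array's annotation on mm9.
Bpifa6 (chr2:153826170-153826229, plus strand): gtagcagaaattgtctcaagtgtctctcta
BC048679 (chr7:88639162-88639221, minus strand): ggtcctcctgaatgggccaaaagaggtttc
Bhlha9 (chr11:76487119-76487178, plus strand): ctgctgctgaactgagagaagcccagaaaa
H2-M11 (chr17:36685754-36685813, plus strand): attttaccctgctgaaatcaccctaacctg
Trim43b (chr9:88979655-88979714, minus strand): gtaaaaccctaactaagacatgttaaaatg
A_55_P2106440 (chr19:47837701-47837760, minus strand): agttccaactctaagtcttcccaagaaaaa
No pair of the whole probes, Pom121l2 included, shared a run of over 12 bases.

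Of the genes with a symbol, 10 were at least 1.5-fold lower in EE-DE in all 4 pairings. Genes of the nasal gland list led them, Bpifa6, of the BPI fold family of lipid-binding secreted proteins, and BC048679. Bpifa6 had log2 signals of −0.48 and 0.08 on the EE-C arrays and of −3.52 and −2.78 on the EE-DE arrays. Both EE-DE arrays lay far below both EE-C arrays, and the log2 fold change was −2.95 (−3.60 to −2.30). BC048679 stood at −1.26 and −0.87 in EE-C and at −4.06 and −3.94 in EE-DE, a log2 fold change of −2.93 (−3.19 to −2.68). In standard cages these 2 genes divided the duplicates of a pool instead. Bpifa6 was at −1.44 and −0.20 in C-C and at −0.64 and −3.31 in C-DE, and BC048679 was at −2.30 and −1.38 in C-C and at −1.55 and −4.24 in C-DE, so in both cases 1 C-DE array was as high as C-C and the other as low as EE-DE.

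The other genes with a symbol that were lower in all pairings lay below the 75th percentile. Of the 13 genes with a symbol past 1.5-fold in all pairings, 8 were under 1.5-fold with normexp background correction, with no change of sign: Pom121l2 (−0.39), Alx4 (−0.40), Psapl1 (−0.51), Prl3d1 (−0.29), Npm2 (−0.26), Ccl24 (−0.22), Rxfp3 (0.32) and H2-M11 (0.51). Bpifa6 (−2.12), BC048679 (−1.92), Bhlha9 (−1.20), Rhox3a (−0.63) and Trim43b (0.65) were past it. That correction added an offset of 50 units to every signal, which draws the fold changes of dim probes towards 0. The count under 1.5-fold therefore cannot tell the background correction from the offset. Bhlha9, a basic helix-loop-helix factor of the limb bud, had −0.88 and −0.05 in EE-C and −2.18 and −1.87 in EE-DE, a log2 fold change of −1.56 (−2.13 to −0.99). It was the brightest of these genes after Bpifa6 in EE-C, and it was also lower in C-DE than in C-C, by −0.83 (−0.96 to −0.71). Pom121l2, a relative of a nuclear pore protein, had −3.02 and −3.23 in EE-C and −4.16 and −4.39 in EE-DE, a log2 fold change of −1.15 (−1.37 to −0.94), against −1.57 (−2.23 to −0.91) in standard cages. Rhox3a, a homeobox gene of the reproductive X-linked cluster, fell by 1.10 on the log2 scale and Psapl1, a relative of prosaposin, by 0.864. Alx4, a homeobox gene of skull and limb, was at −2.72 and −2.75 in EE-C and at −3.61 and −3.39 in EE-DE, a log2 fold change of −0.77 (−0.90 to −0.64) beside −0.79 (−1.20 to −0.39) in standard cages. In standard cages Rhox3a differed by −0.92 (−1.73 to −0.10). Thus for Bhlha9, Pom121l2, Rhox3a and Alx4 the exposed arrays lay below the clean-air arrays in both housings.

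Ccl24, eotaxin-2, a chemokine that attracts eosinophils, was at −3.65 and −3.73 in EE-C and at −4.43 and −4.37 in EE-DE, a log2 fold change of −0.71 (−0.77 to −0.65). In standard cages it was at −4.11 and −4.08 in C-C and at −3.97 and −3.96 in C-DE. The EE-C arrays were thus the highest of the 8, and C-DE/C-C was 0.13 (0.11 to 0.14). Prl3d1, placental lactogen I, had a log2 fold change of −0.69 (−0.79 to −0.59), and Npm2, the nucleoplasmin of the oocyte, one of −0.66 (−0.71 to −0.60). Their EE-DE arrays lay between −4.38 and −4.16, close to the dim end of the measured range.

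With a symbol, 3 genes were at least 1.5-fold higher in EE-DE in all 4 pairings, and each was among the dimmest of the measured genes. H2-M11, a nonclassical class I gene of the M10 family known from vomeronasal neurons, had −5.55 and −5.66 in EE-C and −4.33 and −3.88 in EE-DE, a log2 fold change of 1.501 (1.23 to 1.78). In standard cages it was at −5.04 and −4.40 in C-DE and at −5.29 on the first C-C array, and it was not well above background on the second. Trim43b, a gene of the early embryo, had −5.05 and −4.60 in EE-C and −3.06 and −3.79 in EE-DE, a log2 fold change of 1.40 (0.81 to 1.99), and its C-DE and C-C arrays overlapped. Rxfp3, the receptor of relaxin-3, a peptide of the brainstem, had −5.14 and −4.97 in EE-C and −4.37 and −4.24 in EE-DE, a log2 fold change of 0.74 (0.60 to 0.89). In standard cages Rxfp3 was at −4.95 and −5.30 in C-C and at −4.15 and −4.72 in C-DE, 0.69 higher (0.23 to 1.15).

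**Figure D2:**
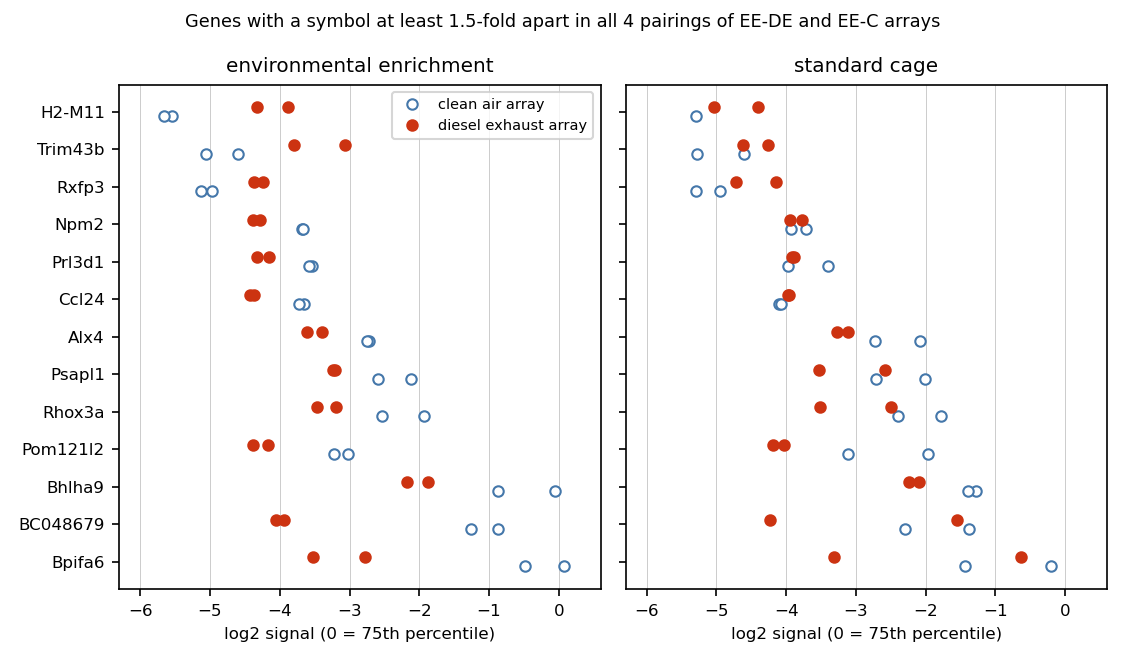
Log2 signal of the 13 genes with a symbol past 1.5-fold in all 4 pairings, with clean-air arrays as open circles and diesel exhaust arrays as filled circles, enriched pools on the left and standard-cage pools on the right. The pools do not overlap on the left, where the 13 genes were chosen for it, and Bpifa6 and BC048679 divide the C-DE duplicates on the right.

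The other 16 genes and transcripts past 1.5-fold in all 4 pairings have no symbol, and 6 of them are long noncoding RNA probes. The 1 bright member, A_55_P2106440, had log2 signals of 3.56 and 3.87 in EE-C and of 2.68 and 2.82 in EE-DE, a log2 fold change of −0.96 (−1.19 to −0.73). It was the only gene above 1 on the log2 scale that was past 1.5-fold in all 4 pairings, and it stood at 3.60 and 3.14 in C-C and at 2.92 and 3.09 in C-DE. The transcript ENSMUST00000099046 went opposite ways in the housings, with −1.08 and −1.65 in EE-C, −2.70 and −2.46 in EE-DE, −2.24 and −1.52 in C-C and −0.81 and −0.84 in C-DE. Other bright transcripts called lower included 4930449A18Rik at −0.70 (−1.10 to −0.29), LOC100045292 at −0.68 (−0.81 to −0.54), A_55_P2179246 at −0.64 (−0.84 to −0.45) and 4933431I19Rik at −0.60 (−0.72 to −0.47), and the EE arrays did not overlap for any of these 4.

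Of the gene lists, the one of the olfactory mucosa had the most higher calls. The list of supporting cell and gland genes of the mucosa holds enzymes that clear odorants and inhaled chemicals, keratins of epithelium and secreted or membrane proteins. Of its 14 measured genes, 8 were called higher and none lower, beside 0.539% of all genes, and its median log2 fold change was 0.67, beside −0.009 over all genes. Of the 8, 5 were quantitative RT-PCR genes picked on these same arrays (Umodl1, Mslnl, Krt18, Cyp2f2 and Aqp3), so the count is not independent evidence of direction. The duplicates of the pools were far apart. The list's median was −0.88 on the first and −1.72 on the second EE-C array, and −0.85 on the first and −0.10 on the second EE-DE array. The median of the gene differences over the pairings ran from −0.23, for the first EE-DE against the first EE-C array, to 1.67. Without the second EE-C array, 0 of the 14 genes were called higher, 1 was called lower and the median was 0.06. Without the first EE-C array, 11 were called higher and the median was 1.28, and without the second EE-DE array 4 were called higher and the median was 0.32. Both EE-DE arrays were above both EE-C arrays for 2 of the 14 genes, about the same share as the 14.3% of all genes.

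Cyp2g1, the cytochrome P450 of olfactory mucosa, had log2 signals of 1.28 and −0.79 in EE-C and of 1.15 and 1.94 in EE-DE. The first EE-C array lay above the first EE-DE array, so the log2 fold change of 1.30 had a range of −0.13 to 2.73. Sec14l3, a lipid-binding protein, had 0.36 and −1.29 in EE-C and 0.27 and 1.02 in EE-DE, a log2 fold change of 1.11 (−0.09 to 2.31), and its second, dimmer probe one of 0.53. Umodl1, a uromodulin-like membrane protein, had −0.69 and −1.94 in EE-C and −0.59 and 0.11 in EE-DE, and Mslnl, a relative of mesothelin, had −1.66 and −2.92 in EE-C and −1.58 and −1.07 in EE-DE. For these last 2 both EE-DE arrays were above both EE-C arrays, by 1.07 (0.09 to 2.05) for Umodl1 and by 0.97 (0.08 to 1.85) for Mslnl on the log2 scale. Krt18, a keratin of simple epithelium, differed by 0.79 (−0.03 to 1.61), Cyp2f2 by 0.74 (−0.30 to 1.78), Cbr2, a carbonyl reductase, by 0.69 (−0.17 to 1.55) and Aqp3, a water and glycerol channel, by 0.64 (−0.44 to 1.72). The 6 measured genes not called were Ugt2a1, Krt8, Aldh3a1, Fmo2, Muc5b and Aqp5, from 0.58 to −0.07.

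The same list lay the other way in standard cages. Its median was −0.46 and −1.22 on the C-C arrays and −1.98 and −1.80 on the C-DE arrays, a median log2 fold change of −1.16 (−1.72 to −0.57). Cyp2g1 was at 1.44 and 0.44 in C-C and at −0.86 and −0.44 in C-DE. Over the 8 arrays, the list was highest on the second EE-DE array and lowest on the first C-DE array, and the median difference between the EE-C duplicates was 1.26. Of the 117 genes called higher in EE-DE/EE-C, 22 were at least 1.5-fold lower in C-DE/C-C and 6 at least 1.5-fold higher. The first 22 included the 8 called genes of the mucosa list and also Cyp2a4, Muc16, Agr2 and Bpifb3, the last measured on 3 arrays, which were named after their values were seen. In a bulk sample of tissue, more cells of a type and more RNA per cell cannot be told apart.

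Of the genes of olfactory sensory neurons, 14 were measured, of which 4 were called higher and none lower, beside 0.539% and 0.488% of all genes, with a median of 0.24 (0.01 to 0.38), and 7 of the 14 were higher on both EE-DE arrays than on both EE-C arrays, beside 14.3% of all genes. Kirrel2, an adhesion protein that sorts sensory axons, had −2.57 and −3.01 in EE-C and −2.27 and −1.85 in EE-DE, a log2 fold change of 0.73 (0.30 to 1.16). Ano2, the calcium-gated chloride channel of the cilia, had −2.58 and −3.45 in EE-C and −2.52 and −2.07 in EE-DE, and differed by 0.72 (0.06 to 1.38). Cnga4, a subunit of the cyclic nucleotide-gated channel, differed by 0.72 (0.03 to 1.41) and Ebf2, a transcription factor of the lineage, by 0.59 (0.17 to 1.00). The brightest members hardly differed: Omp by 0.04 (−0.04 to 0.12), Gng13 by −0.02 (−0.09 to 0.04) and Gnal by 0.11 (−0.04 to 0.26). Of the dimmer members, Adcy3 (0.087), Cnga2 (0.045) and Slc24a4 (−0.007) hardly differed either. Without the second EE-C array, or without the second EE-DE array, none of the 14 was called and the median was 0.14 or 0.19. In C-DE/C-C the list's median was −0.38 (−0.53 to −0.25), with 0 of 14 genes above 0. Of 1101 odorant receptor genes on the array, 90 were measured, their median was −0.01, and 2 were called higher and 1 lower, beside 0.539% and 0.488% of all genes.

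**Figure D3:**
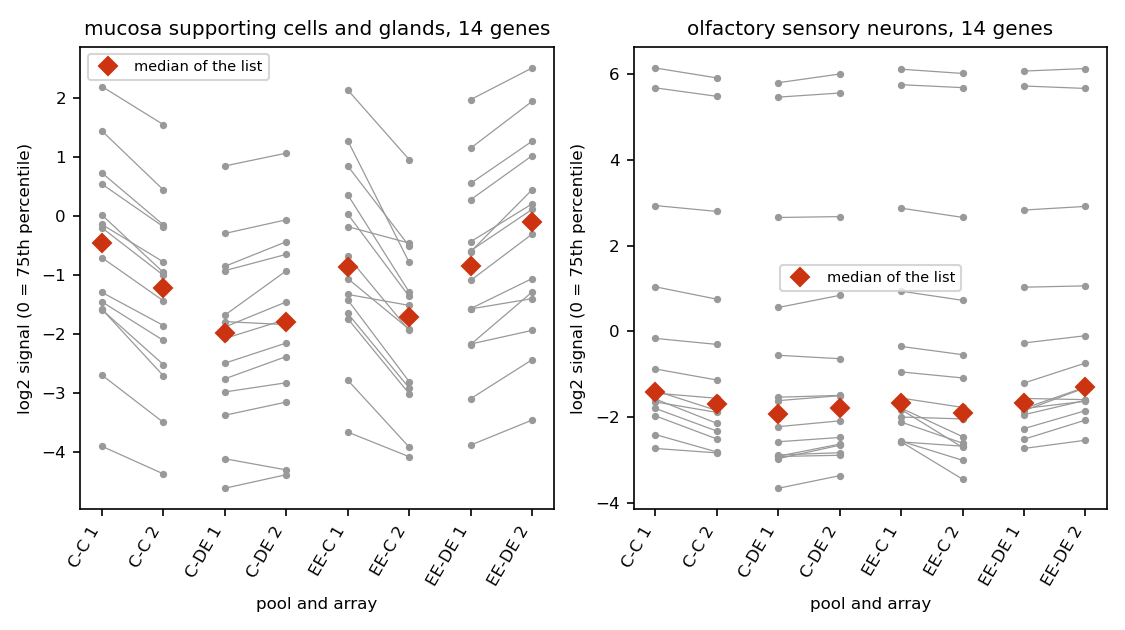
Log2 signal of the 14 genes of mucosa supporting cells and glands and of the 14 genes of olfactory sensory neurons on each of the 8 arrays, with grey lines joining the duplicate arrays of a pool and a diamond at each array's median. Duplicates of EE-C differ as much as pools do for the mucosa genes, and the bright sensory neuron genes at the top of the right panel are level.

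Secreted proteins of nasal glands were a separate list. Of 10 measured, none was called higher and 3 lower, Bpifa6, BC048679 and Obp1a, beside 0.488% of all genes, and the median was −0.16 (−0.76 to 0.10). Without the second EE-C array 6 were called lower and the median was −0.77, and without the first EE-C array 2 were called higher, 3 lower and the median was 0.15. Scgb1c1, a secretoglobin of the olfactory glands, had 2.46 and 0.09 in EE-C and 1.21 and 1.63 in EE-DE, so that its fold change of 0.15 had a range of −1.25 to 1.54. Bpifb4 ranged likewise, from −0.78 to 0.70 around −0.04. Obp1a, an odorant-binding protein, had −1.97 and 1.01 in EE-C and −2.19 and −2.23 in EE-DE. Its log2 fold change of −1.73 came from the second EE-C array, and the range was −3.24 to −0.23.

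Further transcripts were high on that array alone, which were named after their values were seen. Gm14744 had log2 signals of −4.41 and 2.79 in EE-C and of −4.09 and −5.68 in EE-DE. Mup4, a major urinary protein that carries pheromones and is made in nasal glands too, had −4.99 and 2.23 in EE-C and −4.45 and −5.50 in EE-DE. Transcript 5430401F13Rik had −2.76 and 3.84 in EE-C and −2.73 and −3.41 in EE-DE, and the unnamed probe A_55_P2113187 had −2.30 and 3.88 in EE-C and −2.72 and −3.26 in EE-DE. The second EE-C array was thus the only one of the 4 on which these 4 transcripts were well above the 75th percentile, and their log2 fold changes of −4.07, −3.60, −3.61 and −3.78 are values of that array. Ccnt1, a cyclin of transcription elongation, had −0.30 and 5.03 in EE-C and −0.002 and −0.13 in EE-DE. In all, 10 genes were at least 4-fold above every other enriched array on the second EE-C array, 7 on the first EE-C array, 12 on the first EE-DE array and 1 on the second EE-DE array, and 1 was at least 4-fold below the others on the first EE-C array.

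The highest call in the direction of EE-DE was also a value of 1 array. Kdm5d, a histone demethylase gene of the Y chromosome, had −4.54 and −4.35 in EE-C and 0.28 and −4.69 in EE-DE, a log2 fold change of 2.24 (−0.34 to 4.83). Klra2, a killer cell lectin-like receptor, had −5.55 and −4.96 in EE-C and −1.36 and −5.30 in EE-DE. Transcript 2810417H13Rik, bright on the other arrays, had 0.40 and 4.69 in EE-C and 4.53 and 4.69 in EE-DE, so that its fold change of 2.06 came from the first EE-C array. Without the first EE-DE array, 52 of the 117 genes called higher fell under 1.5-fold, and 30 of them under 1.2-fold or below 0. Without the first EE-C array, 39 of the 106 genes called lower fell under 1.5-fold.

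Some genes were well above background in 1 pool only. Counting only those with a bound above 1-fold, EE-C held 110 and EE-DE 1, on a background that was higher on the first EE-DE array. For such genes the fold is a bound, the brighter pool's mean against the higher of the dim probe's own value and the dimmest signal well above background on each array of the other pool. Olfr221, an odorant receptor, had −3.63 and −2.69 in EE-C and was not well above background in EE-DE, which puts it at least 4.53-fold higher in EE-C. The bounds of Gm14743 (at least 7.79-fold) and Olfr284 (at least 4.98-fold) rested on the second EE-C array, where these probes were at 0.96 and −1.03 against −5.72 and −5.02 on the first. Zscan4c, a gene of the early embryo, was at least 1.95-fold higher and the lncRNA BC039966 at least 2.42-fold, and both bounds rested on the first EE-C array, where these probes were at −3.08 and −2.92 against −5.68 and −4.92 on the second. The bound was at least 1.5-fold for 17 of the 110. The 1 transcript of EE-DE, BU961056, was at least 2.30-fold higher there.

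Responses known for exhaust were small in EE-DE/EE-C. Of 10 aryl hydrocarbon receptor targets, 7 were measured, none was called, and the median was 0.09. Over the pairings the median was lower, from 0.02 to 0.07, and with 1 array left out it was 0.04 to 0.07. Of the 7, 6 were above 0, and 3 (Ahr, Ahrr and Nfe2l2) were higher on both EE-DE arrays, beside 14.3% of all genes. Cyp1a1 and Cyp1a2, the classical targets, did not pass the background flag on all 4 arrays. Cyp1b1, a P450 of the same response, had 0.71 and 0.37 in EE-C and 0.48 and 0.37 in EE-DE, and differed by −0.12 (−0.34 to 0.10). Nqo1, a quinone reductase, differed by 0.10 (−0.13 to 0.33). None of 19 Nrf2 and antioxidant genes was called, with a median of −0.02 (−0.10 to 0.05), and the metallothioneins Mt1 and Mt2 differed by −0.03 (−0.14 to 0.08) and −0.04 (−0.20 to 0.12), with the other Mt1 probe at 0.03. Of 22 inflammatory mediators, 15 were measured and none was called, with a median of 0.01 (−0.11 to 0.04). Il1a, Il1b, Il6, Tnf, Cxcl1, Cxcl2 and Icam1 were not measured. Nos2, the inducible nitric oxide synthase, had −1.59 and −1.91 in EE-C and −2.36 and −1.99 in EE-DE, and Tlr7, a receptor of single-stranded RNA, −0.60 and −1.22 in EE-C and −1.54 and −1.40 in EE-DE. Both were lower on both EE-DE arrays, by −0.43 (−0.77 to −0.08) and −0.56 (−0.94 to −0.18), and were under 1.5-fold. In all 3 of 14 mediators with 4 arrays were lower on both EE-DE arrays, beside 20.0% of all genes, and 2 were called lower without the second EE-C array and 2 without the second EE-DE array.

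Interferon response genes leaned towards EE-DE with no gene called. Of 19 measured, 17 had a fold change above 0, the median was 0.14 (−0.05 to 0.41), and 6 of 18 with 4 arrays were higher on both EE-DE arrays, beside 14.3% of all genes. The first EE-DE array carried most of it. Ifi27l2a had 1.89 and 2.12 in EE-C and 2.55 and 2.21 in EE-DE, a difference of 0.38 (0.10 to 0.66). Ifit3, of the antiviral IFIT proteins, had 1.11 and 1.08 in EE-C and 1.57 and 1.19 in EE-DE, a difference of 0.28 (0.08 to 0.49), and Isg15, the ubiquitin-like modifier, had 1.76 and 1.73 in EE-C and 2.15 and 1.74 in EE-DE, a difference of 0.20 (−0.02 to 0.42). Cxcl10, an interferon-induced chemokine, differed by 0.19 (−0.10 to 0.47). Without the first EE-DE array the list's median was −0.02, and without the second it was 0.39 with 1 gene called higher. In standard cages the list's median was 0.32 (0.10 to 0.56). Of the class I and class II presentation genes, 14 of 14 were above 0, none was called, and the median was 0.07 (−0.07 to 0.25), but −0.02 without the first EE-DE array.

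Glucocorticoid response genes leaned the other way. None of 13 was called, 12 of 13 were below 0, 5 were lower on both EE-DE arrays, beside 20.0% of all genes, and the median was −0.07 (−0.14 to 0.01). With 1 array left out the median lay between −0.13 (without the second EE-C array) and −0.03 (without the first EE-DE array). Fkbp5, a chaperone of the glucocorticoid receptor that its ligand induces, had 1.56 and 1.47 in EE-C and 1.34 and 1.31 in EE-DE, a difference of −0.19 (−0.24 to −0.13). Sgk1, a kinase of the same response, differed by −0.13 (−0.24 to −0.01). Dbp, a clock output factor, had 4.77 and 4.67 in EE-C and 4.49 and 4.62 in EE-DE, a difference of −0.16 (−0.28 to −0.04), while its second probe, nearly as bright, differed by 0.01. The clock genes in phase with Dbp had a median of 0.03 and those in antiphase one of −0.04, and none was called.

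Activity genes and neutrophil genes varied widely between duplicates. The immediate early genes had a median of 0.12 (−0.15 to 0.40) over 16 genes, with none called, but −0.03 without the first EE-C array and −0.04 without the first EE-DE array. Nr4a1 had 5.00 and 5.58 in EE-C and 5.73 and 5.20 in EE-DE, and Egr1 had 4.39 and 4.66 in EE-C and 4.78 and 4.43 in EE-DE, so that 1 array of each pool was high and the other low. Neutrophil granule genes were highest on the first EE-C array, where the list's median was −1.47 against −2.38 on the second, and −1.87 and −2.25 in EE-DE. S100a9, a calprotectin subunit, had 2.52 and 0.84 in EE-C and 1.75 and 1.00 in EE-DE. The list's median fold change of −0.32 had a range of −1.33 to 0.71, and none of its 10 genes was called. Without the second EE-C array 8 were called lower (median −0.98), without the first EE-DE array 7 (median −0.65), and without the first EE-C array none (median 0.38). Red cell genes had a median of −0.03 over 6 genes and bone and osteoclast genes one of 0.04 over 9, with none called. Without the first EE-C array 1 red cell gene (median 0.22) and 3 bone genes (median 0.14) were called higher, without the second EE-C array 1 red cell gene was called lower (median −0.25), and without the first EE-DE array 1 bone gene was called higher (median 0.03).

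Genes of the bulb's own cells differed little between EE-DE and EE-C. None was called among 11 mitral and tufted cell genes, 11 granule interneuron genes, 11 periglomerular genes, 12 neuroblast genes, 11 astrocyte genes, 12 myelin genes, 9 ensheathing cell genes, 14 microglia genes and 12 endothelial genes, and the medians of these lists lay between −0.035 and 0.045. Gad1, which makes GABA, differed by −0.04 (−0.07 to −0.01), Slc32a1, the GABA transporter of vesicles, by −0.06 (−0.13 to 0.02), Eomes of tufted cells by −0.12 (−0.24 to −0.01) and Csf1r of microglia by −0.04 (−0.09 to 0.00), with its other probes at 0.04 and 0.01. Among the named genes of these lists, Ermn, a cytoskeletal protein of myelin, stood out, with 4.116 and 4.204 in EE-C, 4.53 and 4.74 in EE-DE, 4.81 and 4.57 in C-C and 4.66 and 5.02 in C-DE. Its difference of 0.48 (0.33 to 0.63) had the EE-C arrays as the lowest of the 8, and its dimmer probe differed by 0.04. Neuropeptides had a median of 0.01 over 14 genes, growth factors one of −0.03 over 11, and heat shock proteins one of −0.02 over 13, with none called. Of 9 measured proliferation genes, Tk1, thymidine kinase, was called higher at 0.94 (0.07 to 1.82) from −4.96 and −5.24 in EE-C and −3.42 and −4.89 in EE-DE, while its second probe differed by −0.004 and Tk1 was not called without the first EE-DE array. Pcna, a clamp of DNA replication, differed by −0.10 (−0.14 to −0.07) and Mki67 by 0.00 (−0.13 to 0.14).

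**Figure D4:**
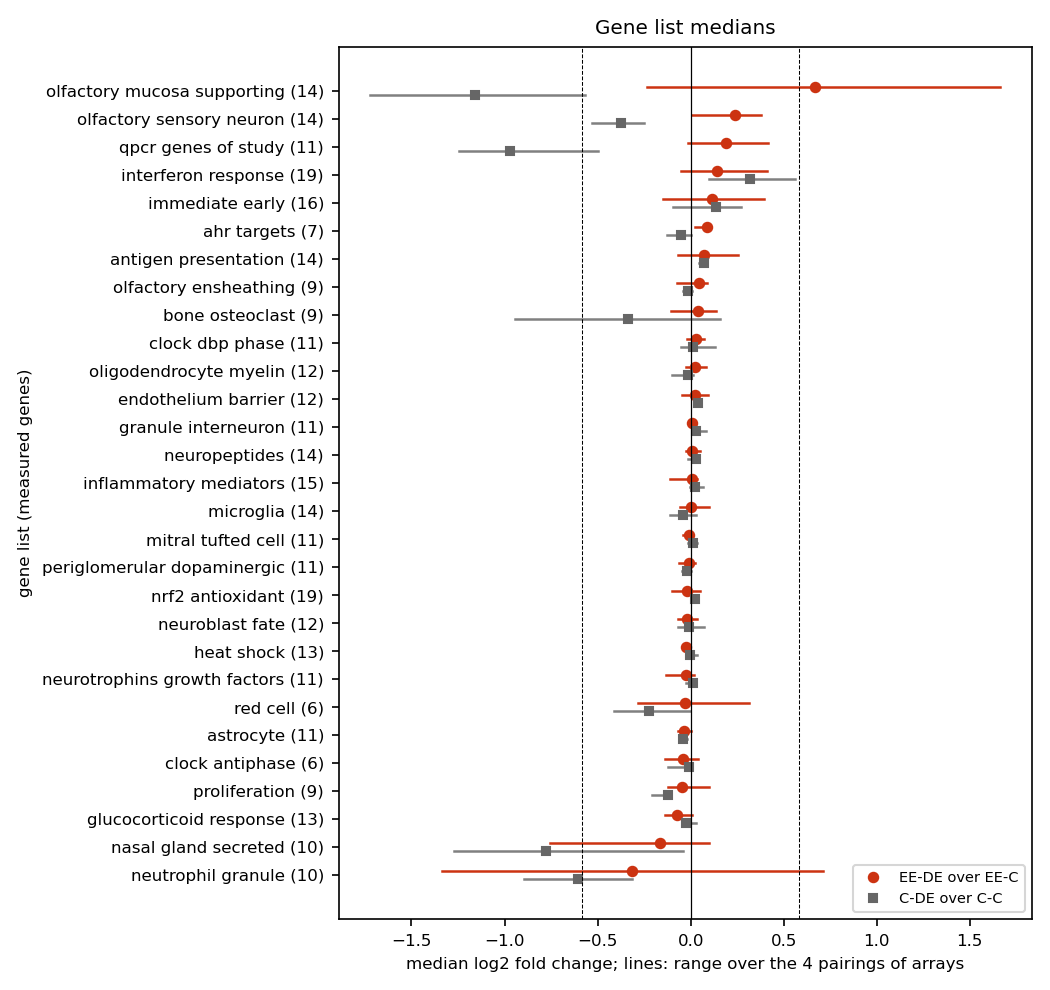
Median log2 fold change of each gene list in EE-DE over EE-C (circles) and C-DE over C-C (squares), with lines for the range of the list's median over the 4 pairings of arrays (a median of gene means can lie outside that range) and dashed lines at 1.5-fold. The lists of the bulb's own cells sit within 0.1 of 0, and the mucosa list lies on opposite sides of 0 in the housings.

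Among the highly expressed housekeeping families, most members lay slightly below 0. Of 78 measured cytosolic ribosomal protein genes, 30 were lower on both EE-DE arrays and 5 higher, with a median of −0.05, and of 85 respiratory chain genes 31 were lower and 11 higher, with a median of −0.04. These stand beside 20.0% and 14.3% of all genes, and none was called. Gapdh, the reference gene of quantitative RT-PCR, had 8.57 and 8.36 in EE-C and 8.17 and 8.20 in EE-DE on its brightest probe, a log2 fold change of −0.28 (−0.40 to −0.16), while its other probes differed by −0.13 to 0.04.

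Quantitative RT-PCR genes had been picked on these same arrays, so their direction is not independent evidence. Of these 11 genes, 5 were called higher, beside 0.539% of all genes, the mucosa genes Umodl1, Mslnl, Krt18, Cyp2f2 and Aqp3, but none without the second EE-C array and 2 without the second EE-DE array. Fam13c had −0.08 and −0.14 in EE-C and 0.07 and 0.10 in EE-DE, a difference of 0.19 (0.14 to 0.24), beside 0.54 (0.42 to 0.66) in standard cages. Chmp4b, a subunit of the ESCRT-III membrane-cutting complex, had 4.39 and 4.43 in EE-C and 4.49 and 4.44 in EE-DE, a difference of 0.05 (0.01 to 0.10), and its other probes differed by −0.135 and −0.10. Nr1i3, the nuclear receptor CAR, a sensor of foreign chemicals, had −1.63 and −2.13 in EE-C and −2.33 and −1.74 in EE-DE, a difference of −0.15 (−0.70 to 0.39), beside −0.97 (−1.25 to −0.70) in standard cages. Sdad1, of ribosome export, differed by −0.07 (−0.13 to 0.00), beside −0.11 in standard cages. Its second, dimmer probe differed by −0.34 (−0.61 to −0.075), beside −1.14 in standard cages.

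Set beside the standard-cage pools, which share no array with the enriched ones, the genes called lower lay below 0 in C-DE/C-C more often than the genes called higher lay above it. Of the 106 genes called lower, 79 had a negative fold change in standard cages, 25 of them past 1.5-fold, and 4 were past 1.5-fold the other way. Of the 117 called higher, 59 had a positive one. Counting only genes well above background on all 4 standard-cage arrays, it was 79 of 104 and 52 of 108. All measured genes were above 0 in standard cages in 47.3% of cases. Of the 22 genes lower in all 4 pairings, 20 were below 0 in C-DE/C-C and 12 past 1.5-fold, and the 7 genes higher in all 4 pairings were all above 0 there, 3 past 1.5-fold. Of these 3, Rxfp3 was well above background on all 4 standard-cage arrays, and H2-M11 and 3426406K10Rik on 1 of the C-C arrays. The last is a transcript of the X chromosome, at −4.51 and −4.93 in EE-C, −3.83 and −3.40 in EE-DE, −4.78 and −6.69 in C-C and −3.78 and −3.53 in C-DE. Over all genes, 3170 had no overlap between exposed and clean-air arrays in both housings, 2290 of them in the same direction and 880 in opposite directions. In enrichment alone, 14.3% of genes with 4 arrays were higher without overlap and 20.0% lower. The background flag was applied to the enriched arrays only, so standard-cage values near background can be among these counts. Enriched and standard-cage arrays lay in separate columns of the same slide, in the same order of pools, so the pool and the position within the slide cannot be told apart.

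**Figure D5:**
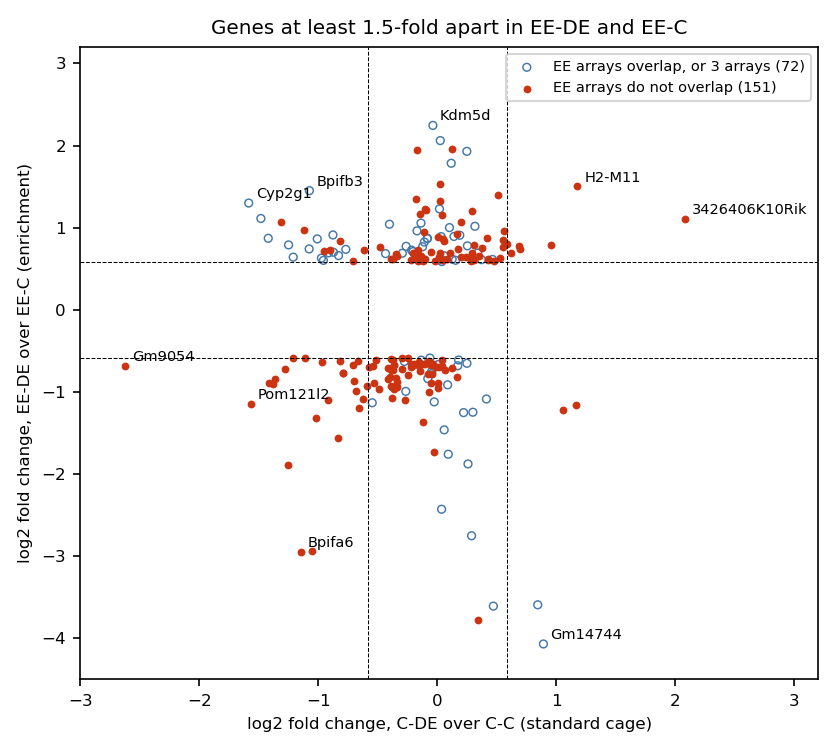
Log2 fold change in enrichment (EE-DE over EE-C) against that in standard cages (C-DE over C-C) for the 223 called genes, with dashed lines at 1.5-fold, filled circles where the enriched arrays did not overlap and open circles where they did or where 3 arrays were measured. The mucosa genes lie at the upper left, H2-M11 at the upper right, and the genes lower in both housings at the lower left.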

How the data were processed

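RNA of 1 pool per group was hybridized to 2 one-colour Agilent mouse arrays of a single slide. The authors deposited intensity values in the form that Feature Extraction 10.7.3.1 wrote, with a spatial trend surface removed, per the file headers, and were not scaled between arrays. The deposited log2 values of the series table were made by the authors. They equal the log2 signal minus the 75th percentile, centred per probe on the median of the 8 arrays, within 0.02 for 99.6% of 30730 probes, and column medians lay between −0.011 and 0.018. They served as an alternative.

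Here the processed signal was put on a log2 scale and each array's 75th percentile over noncontrol spots was subtracted. Spots had to be well above background and free of outlier flags on the 4 enriched arrays. Spots of the first EE-C array above row 310 in columns up to 12 (829 spots), where the median deviation was −0.41, were set aside. Spots of a probe were averaged, and the brightest of a gene's passing probes was taken, which matters for 6195 genes with several. Other probes are given where they differ in sign or by over 0.3. With 1 pool per group there is no test. Intervals from reads do not apply, and the number of arrays limits the precision. The calling was run on simulated arrays with independent noise and no single-array extremes, so that run does not bear on calls carried by 1 array. Python 3.11.15, pandas 2.3.3 and numpy 2.4.6 were used, and limma 3.58.1 in R 4.3.3 for alternatives. Of 14658 RefSeq accessions, 14455 were in the RefSeq gene table (GRCm38.p6), which was used for names only.

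Genes were named when they had a symbol and passed 1.5-fold in all 4 pairings (up to 12 each way), when they had the largest bounds in 1 pool only, when they belonged to 1 of 29 lists and were called or among its 3 brightest, or when they were measured by quantitative RT-PCR. Other list genes (Nos2, Tlr7, Nqo1, Ahr, Ahrr, Ifit3, Mki67, Sgk1, Fkbp5, Adcy3, Cnga2, Slc24a4, Ebf3, Rtp2) and genes high on 1 array were picked after their values were seen. The comparison, lists and rules were chosen with earlier results of these data known. Alternatives to the background correction, scale, filters, probe rule, corner and threshold were computed, and each array was left out in turn.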

Additional observations from a re-analysis of the deposited data

Results flagged for a closer look

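Several results lay on opposite sides of 0 in the 2 housings, every pairing of EE-DE with EE-C arrays going one way and every pairing of C-DE with C-C arrays the other. The difference between the housings was not tested, because each group is 1 pool. Among mucosa and sensory neuron genes those past 1.5-fold were Umodl1 (1.07 in EE-DE/EE-C and −1.31 in C-DE/C-C, log2), Mslnl (0.97 and −1.12), Kirrel2 (0.73 and −0.62), Cnga4 (0.72 and −0.95), Ano2 (0.72 and −0.90) and Ebf2 (0.59 and −0.71). The sensory neuron genes Rtp2 (0.31 and −0.39) and Ebf3 (0.26 and −0.36), under 1.5-fold, met the same rule. The median of the olfactory sensory neuron list was 0.24 against −0.38. Beside them, the median difference of the mucosa genes between the 2 EE-C arrays was 1.26 (log2). Ccl24 lay at −0.71 against 0.13 and the transcript ENSMUST00000099046 at −1.22 against 1.05. Slc30a2, a zinc transporter, lay at 1.22 against −0.09, with a signal of −0.38 on the first EE-DE array and of −2.54 on the second. Smaller values were those of Npy (0.10 and −0.03) and Gad1 (−0.04 and 0.06).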

How the results depend on the processing

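The counts of called genes were sensitive to the handling of dim signal. For genes at least 1.5-fold higher (117) and lower (106), they became 34 and 37 with normexp background correction, 548 and 655 with the looser flag of a positive and significant signal, 25 and 26 among the brighter 75% of genes, 77 and 58 with GenBank or RefSeq accessions only, 26 and 30 at 2-fold, and 7 and 22 with 1.5-fold in all 4 pairings. Among genes whose duplicates lay within 1.5-fold, an alternative chosen after seeing the data, they were 31 and 52. Leaving out 1 array gave 146 to 199 genes higher and 121 to 221 lower, the most without the second EE-C array (199 higher, 213 lower) and, for lower genes, without the second EE-DE array (221). With quantile normalization, 62.0% of the calls were higher, against 52.5%. The counts of genes whose arrays did not overlap stayed within 1.5 times under each alternative run. Tk1 changed sign with accessions only (−0.004). Under the alternatives, 1823 values of named genes moved by less than 1 SD over the pairings and 44 by more, as did 465 and 28 of the list medians. With normexp correction, 18 of the 29 genes past 1.5-fold in all pairings came under 1.5-fold. Its offset of 50 units lowers the fold changes of dim probes, here and in the counts above. No paired analysis was possible because the values come from no test and the array numbers name technical duplicates of a pool.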
